A study of Mus musculus with 9 samples.

Results

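The 9 genes described here encode transcription factors that shape specialised states of regulatory T cells (Tregs): Pparg, Rora, Batf, Gata3, Ahr, Maf, Bcl6, Tbx21 and Stat3. They were taken by symbol from the deposited Treg table, which lists 33022 transcripts of 24016 symbols, with the transcript of the highest mean over the 5 Treg libraries standing for each gene. The Tregs had been isolated by FACS from lymph nodes that drain the skin and were sequenced as bulk RNA. The libraries were 2 of TSLPR WT Tregs from Mi2 mice, 1 of TSLPR-negative Tregs from Mi2 mice and 2 of control (Ctl) Tregs. TSLPR, the product of Crlf2, binds TSLP, a cytokine of barrier tissues. The name Mi2 points to Mi-2β, a remodelling ATPase of chromatin made from the Chd4 gene. The column names of the files mark the Mi2 libraries as knock-outs, although Chd4 RNA was at a similar level in Mi2 and Ctl Tregs, as given below. A second table holds FACS-sorted epidermal keratinocytes of adult skin, with 2 libraries of Mi2 and 2 of WT epidermis. The columns of the Ctl libraries are named WT, and the labels give no further genotype. They give no age, no strain and no Cre driver. They do not say how the TSLPR-negative cells were obtained or whether replicates came from separate mice, so p-values measure the spread between these libraries, which may be technical. The column names call the lymph node Tregs skin Tregs, and the TSLPR-negative library was assigned to its column by reading TMDKO as a double knock-out of TSLPR and Mi2. The study's title asks how keratinocytes control Tregs.

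Tregs carry the factor FOXP3, and on top of it they take up programmes that resemble those of the helper T cells they restrain or of the tissue they settle in. GATA3 is the master factor of type 2 helper cells and is active in Tregs of skin and gut. RORα, a nuclear receptor, is highly expressed in skin Tregs, and PPARγ, a lipid-activated nuclear receptor, marks Tregs of visceral fat and other tissues. BATF is an AP-1 family factor that works with IRF4 and drives the step from resting to effector and tissue Tregs. AHR is a ligand-activated sensor of small aromatic molecules, and MAF acts in IL-10 producing, gut and follicular Tregs. BCL6 is the repressor that defines follicular T cells, and it opposes Blimp-1, the product of Prdm1. T-bet, encoded by Tbx21, is the type 1 factor. STAT3 carries signals from IL-6, IL-10, IL-21 and IL-23. Signals through TSLPR run mainly over STAT5.

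The promoters of 3 of the genes are shown because Bcl6, Pparg and Batf had the smallest adjusted p of the 9 in the first comparison and belong to different classes of factor. Each window is a RefSeq promoter on GRCm38.p6 that runs from 250 bases before to 50 bases after an annotated start. It is written 5′ to 3′ in the gene's direction in lower case, with motif matches in capitals. RefSeq held 10 such windows for 7 of the 9 genes. Motifs were searched on both strands of all 32807 windows. The STAT motif was TTCNNNGAA, found in 8.29% of windows. The AP-1 motif, TGANTCA, was found in 7.82%. The motif of GATA factors, AGATAA, was found in 11.2%. The nuclear receptor element AGGTCA was found in 16.3%, and GCGTG, the core bound by AHR, in 32.4%. No match overlapped another in the windows printed.
Bcl6 upstream start, chr16:23988803-23989102, minus strand: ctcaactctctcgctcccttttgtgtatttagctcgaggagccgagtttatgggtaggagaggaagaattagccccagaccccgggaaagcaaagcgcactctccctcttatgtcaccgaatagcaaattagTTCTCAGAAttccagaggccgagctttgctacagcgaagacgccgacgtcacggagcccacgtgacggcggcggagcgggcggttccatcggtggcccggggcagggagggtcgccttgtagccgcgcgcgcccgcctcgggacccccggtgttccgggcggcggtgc
Bcl6 downstream start, chr16:23981234-23981533, minus strand: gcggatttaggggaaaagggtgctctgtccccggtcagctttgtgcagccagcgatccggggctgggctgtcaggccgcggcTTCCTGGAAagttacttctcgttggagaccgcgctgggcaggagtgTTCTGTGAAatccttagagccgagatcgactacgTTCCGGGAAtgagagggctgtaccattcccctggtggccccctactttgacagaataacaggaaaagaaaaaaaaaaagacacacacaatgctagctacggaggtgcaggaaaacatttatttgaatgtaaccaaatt
Pparg, chr6:115360894-115361193, plus strand: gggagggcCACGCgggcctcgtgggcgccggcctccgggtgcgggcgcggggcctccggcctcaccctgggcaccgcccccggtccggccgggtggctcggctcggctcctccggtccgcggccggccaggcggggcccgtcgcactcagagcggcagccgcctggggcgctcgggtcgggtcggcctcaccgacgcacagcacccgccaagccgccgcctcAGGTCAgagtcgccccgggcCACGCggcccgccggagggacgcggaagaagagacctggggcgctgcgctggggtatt
Batf, chr12:85686470-85686769, plus strand: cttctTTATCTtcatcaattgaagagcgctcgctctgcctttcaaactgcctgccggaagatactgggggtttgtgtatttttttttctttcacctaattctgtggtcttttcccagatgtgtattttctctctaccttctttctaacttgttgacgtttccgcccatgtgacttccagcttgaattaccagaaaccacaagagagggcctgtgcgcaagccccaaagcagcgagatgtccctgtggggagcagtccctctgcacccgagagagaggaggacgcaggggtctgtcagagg
The downstream Bcl6 window held 3 STAT matches, TTCCTGGAA, TTCTGTGAA and TTCCGGGAA, at 168, 122 and 88 bases before the start. Of all windows, 0.0335% held at least 3 such matches, a share that was looked up after the matches had been seen. The upstream Bcl6 window held 1 STAT match, TTCTCAGAA, at 118 bases before the start. The Pparg window printed is the first of 3 that RefSeq lists, and it held the most matches. It held AGGTCA at 28 bases before the start and CACGC, the AHR core read from the other strand, at 242 and 8 bases before it. The second Pparg window held AGGTCA alone, at 9 bases before its start, and the third held no match. The Batf window held 1 GATA match at 245 bases before the start and no other. A match describes the letters in the window, and no factor's binding was measured here.

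Depth ranged between 21849381 and 32238992 reads over the transcripts of the Treg libraries and between 5682391 and 8913804 over the genes of the epidermal ones. Values are given as the authors' normalized reads. The Treg label was borne out by its defining markers: Foxp3 had 13778 and 14517 normalized reads in TSLPR WT Mi2 Tregs, 13460 in TSLPR-negative Mi2 Tregs and 11159 and 15371 in Ctl Tregs, and none of the 7 Treg markers was at 0. Crlf2 had 816 and 715 normalized reads in TSLPR WT Mi2 Tregs, 51.5 in TSLPR-negative Mi2 Tregs and 395 and 742 in Ctl Tregs. That put it 14.6-fold lower in TSLPR-negative than in TSLPR WT Mi2 Tregs (log2 change -3.86, limma adjusted p = 1.4e-04). Chd4 had 12374 and 13659 in TSLPR WT Mi2 Tregs, 15392 in TSLPR-negative Mi2 Tregs and 11757 and 15129 in Ctl Tregs. It did not differ between TSLPR WT Mi2 and Ctl Tregs at the threshold used (log2 -0.04, limma adjusted p = 0.919). The 8 B cell markers summed to 1155 and 1383 normalized reads in TSLPR WT Mi2 Tregs, 1187 in TSLPR-negative Mi2 Tregs and 5963 and 2897 in Ctl Tregs. All 8 were lower in TSLPR WT Mi2 than in Ctl Tregs, or 4 of 8 without Ctl replicate 1, and none was at 0. The ILC2 markers summed to 388 and 360 in TSLPR WT Mi2 Tregs, 345 in TSLPR-negative Mi2 Tregs and 201 and 236 in Ctl Tregs. Most of that was Il17rb, which rose in TSLPR WT Mi2 against Ctl Tregs (log2 1.18, adjusted p = 0.00647), while Il13 was at 0 in all but the TSLPR-negative library. Hpgds, the other ILC2 marker that could be tested, had 22.9 and 30.9 in TSLPR WT Mi2 Tregs, 33.8 in TSLPR-negative Mi2 Tregs and 62.7 and 59.4 in Ctl Tregs (log2 -1.17 in TSLPR WT Mi2 against Ctl, adjusted p = 0.0588). Of the other lists in the Treg libraries, single genes rose in TSLPR WT Mi2 against Ctl Tregs for myeloid (Itgam), dendritic (Ccl22) and stromal cells (Col1a1). The single genes Cd8a, Pecam1 and Pmel of the CD8, endothelial and melanocyte lists fell. The keratinocyte genes Krt5, Krt14 and Trp63 were at 0, and Krt1 was at 1.18 or less. Krt10 was present, with 31.8 and 47.8 in TSLPR WT Mi2, 19.4 in TSLPR-negative Mi2 and 47.3 and 31.3 in Ctl Tregs.

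Levels can be set side by side between genes only per length, as normalized reads per kb of transcript. In Ctl Tregs the order was Stat3 (1500 ± 86.4), Batf (1302 ± 65.2), Gata3 (612 ± 36.5), Maf (610 ± 150), Bcl6 (200 ± 42.9), Rora (127 ± 63.0), Ahr (101 ± 41.5), Tbx21 (40.8 ± 18.2) and Pparg (4.64 ± 2.03; SD, n = 2 each). The ranges of the neighbours Gata3 and Maf, Bcl6 and Rora, and Rora and Ahr overlapped, and those of the other neighbours did not. In TSLPR WT Mi2 Tregs Batf was the highest per length at 3172 ± 274, and Bcl6, at 29.4 ± 16.9, stood beside Tbx21 at 28.1 ± 7.34 (SD, n = 2). Pparg was at 73.0 ± 37.8 per kb there, above both (SD, n = 2). In the TSLPR-negative library Batf (1841) and Stat3 (1449) led again, and Pparg (52.6) was last, next to Tbx21 (54.4). Over the 5 libraries the highest value of a gene exceeded its lowest 31.1-fold for Pparg, 13.1-fold for Bcl6, 5.02-fold for Rora and 3.93-fold for Ahr. It did so 3.46-fold for Maf, 2.68-fold for Batf, 2.38-fold for Tbx21, 1.48-fold for Stat3 and 1.21-fold for Gata3. Gata3 and Stat3 were thus the steadiest of the 9 and Pparg the most variable.

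**Figure D1:**
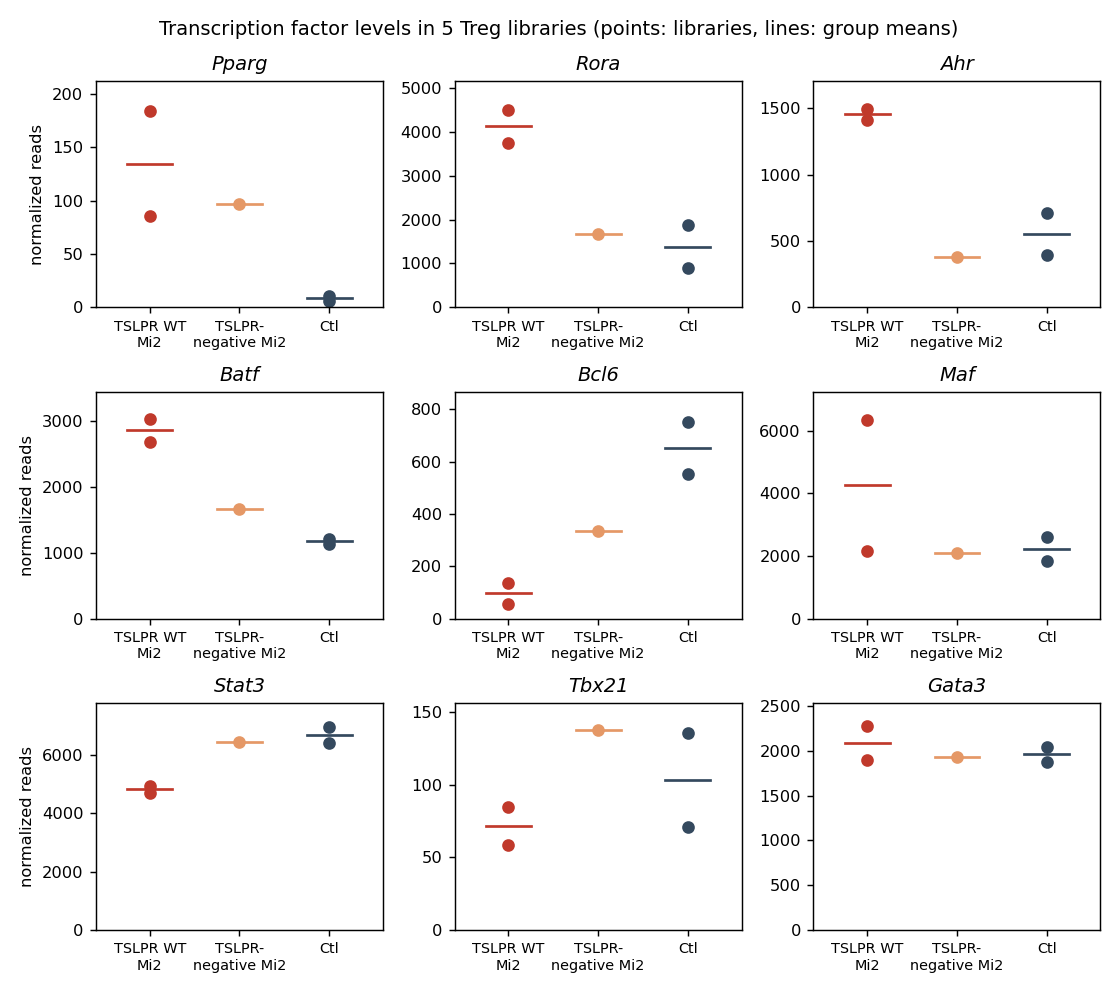
Normalized reads of the 9 factors in each Treg library, 1 panel a gene with its own vertical axis; points are libraries, lines are group means, and the groups run TSLPR WT Mi2, TSLPR-negative Mi2 and Ctl. Pparg sits at 85.5 and 184 in TSLPR WT Mi2, 97.1 in TSLPR-negative Mi2 and 5.92 and 11.2 in Ctl Tregs, while Gata3 stays between 1880 and 2282 in all 5 libraries.

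The first comparison, TSLPR WT Mi2 against Ctl Tregs, concerns Tregs that keep the TSLP receptor, from lymph nodes that drain the skin of Mi2 mice. Pparg, Rora, Ahr and Batf were higher, by 2.43-fold to 13.8-fold, and Bcl6 was 7.25-fold lower. So 4 of the 9 rose and 1 fell at a limma adjusted p under 0.05, and 4 were not called. Of all 12206 genes tested, 27.7% were called, 14.7% higher and 13% lower. The median log2 change was 0.76 over the 9 and -0.01 over all genes tested.

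Pparg (chr6:115311239-115440419 on mm9, plus strand) had 85.5 and 184 normalized reads in TSLPR WT Mi2 Tregs, against 5.92 and 11.2 in Ctl Tregs. These stand for 97 and 185 whole reads in TSLPR WT Mi2 Tregs and 5 and 14 in Ctl Tregs. The gene was thus detected at a low level in each library, and both TSLPR WT Mi2 libraries lay far above both Ctl libraries. It rose 13.8-fold (log2 change 3.78, SE 0.492, adjusted p = 6.6e-05), which on the log2(value + 1) scale understates the change of so low a gene. Its Ctl mean of 8.57 is under the minimum mean of 10, so Pparg was tested only because of the Mi2 libraries, and with no filter it was not called (adjusted p = 0.0691). Both annotated Pparg transcripts share most of their reads, so the rise is not assigned to either start. In bulk RNA, a larger share of cells that use a gene and more RNA per cell cannot be told apart.

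Rora (chr9:69137648-69236053, plus strand) had 4501 and 3741 normalized reads in TSLPR WT Mi2 Tregs, against 1864 and 897 in Ctl Tregs. The groups did not overlap, and the Ctl libraries differed from each other about as much as the nearer pair across groups. The rise was 3.17-fold (log2 change 1.67, SE 0.283, adjusted p = 5.7e-04). Of its 3 listed transcripts, the short one had 0 reads in all 5 libraries. ILC2 also use Rora and Pparg. The ILC2 sum was higher in the same group mostly through Il17rb, with Hpgds going the other way as given above, and their part in the rise was not tested.

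Batf (chr12:87027670-87050037, plus strand) had 3026 and 2678 normalized reads in TSLPR WT Mi2 Tregs and 1129 and 1212 in Ctl Tregs. Replicates lay close together in both groups. It rose 2.43-fold (log2 change 1.28, SE 0.203, adjusted p = 3.4e-04). Gata3 (chr2:9778705-9800227, minus strand), the type 2 factor, had 2282 and 1900 normalized reads in TSLPR WT Mi2 Tregs and 1880 and 2046 in Ctl Tregs. The groups overlapped, and the log2 difference of 0.09 was smaller than its error (SE 0.206, adjusted p = 0.793).

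Ahr (chr12:36182651-36219661, minus strand) had 1416 and 1496 normalized reads in TSLPR WT Mi2 Tregs and 715 and 393 in Ctl Tregs. Both TSLPR WT Mi2 libraries were above both Ctl libraries, and Ahr rose 2.74-fold (log2 change 1.46, SE 0.272, adjusted p = 0.00119). Maf (chr8:118227153-118230794, minus strand) had 6345 and 2155 normalized reads in TSLPR WT Mi2 Tregs and 2603 and 1833 in Ctl Tregs. Only replicate 1 of the TSLPR WT Mi2 Tregs stood high, and replicate 2 lay inside the Ctl range, so the difference was not called (log2 0.76, SE 0.362, adjusted p = 0.135). Maf turns on that library: the log2 difference was -0.02 without TSLPR WT Mi2 replicate 1 and 1.54 without replicate 2, which was then called (adjusted p = 1.0e-05).

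Bcl6 (chr16:23965138-23988698, minus strand) had 57.3 and 135 normalized reads in TSLPR WT Mi2 Tregs, against 554 and 752 in Ctl Tregs. The groups were far apart, although the TSLPR WT Mi2 libraries also differed between themselves. It fell 7.25-fold (log2 change -2.86, SE 0.361, adjusted p = 5.4e-05). Without TSLPR WT Mi2 replicate 2 the log2 change was -3.47 and without replicate 1 it was -2.24, and both were called. B cells use Bcl6 as well, and their markers were lower in the same group, as given above. Without Ctl replicate 1, which had the highest B cell sum, the log2 change of Bcl6 was -3.08. The remaining Ctl library still had a higher B cell sum (2897) than the TSLPR WT Mi2 libraries (1155 and 1383). The part of B cells in the fall of Bcl6 was not tested.

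Tbx21 (chr11:96959321-96976645, minus strand) had 58.2 and 84.6 normalized reads in TSLPR WT Mi2 Tregs and 71.0 and 136 in Ctl Tregs. The groups overlapped and the difference was not called (log2 -0.48, SE 0.395, adjusted p = 0.396). Stat3 (chr11:100748124-100800825, minus strand) had 4952 and 4699 normalized reads in TSLPR WT Mi2 Tregs and 6417 and 6962 in Ctl Tregs. Its groups did not overlap, but the log2 difference of -0.47 was not called (SE 0.199, adjusted p = 0.0939).

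The second comparison, TSLPR-negative against TSLPR WT Tregs of Mi2 mice, sets the 1 TSLPR-negative library beside the 2 TSLPR WT libraries of the same kind of mouse. In it Ahr was 3.82-fold lower. None of the 9 rose, Ahr alone fell, and 8 were not called, where 0.942% of all 12206 genes were called, 0.737% higher and 0.205% lower. The lone library has no replicate, and the test assumes that it varies like the other groups. The median log2 difference was -0.37 over the 9 and 0.03 over all genes tested.

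Ahr had 381 normalized reads in TSLPR-negative Mi2 Tregs, below all 4 other Treg libraries, against 1416 and 1496 in TSLPR WT Mi2 Tregs (log2 change -1.93, SE 0.333, adjusted p = 0.0170). Bcl6 had 336 in TSLPR-negative Mi2 Tregs, against 57.3 and 135 in TSLPR WT Mi2 Tregs, and just missed the threshold (log2 1.92, SE 0.442, adjusted p = 0.0573). The B cell sum of the TSLPR-negative library, 1187, lay within the range of the TSLPR WT Mi2 libraries. Here too the part of B cells in the Bcl6 difference was not tested. Rora had 1669 in TSLPR-negative Mi2 Tregs, against 4501 and 3741 in TSLPR WT Mi2 Tregs (log2 -1.30, SE 0.346, adjusted p = 0.103). Its value lay inside the Ctl range. Batf, at 1655 in TSLPR-negative Mi2 Tregs against 3026 and 2678 in TSLPR WT Mi2 Tregs, lay between the TSLPR WT Mi2 and the Ctl libraries (log2 -0.78, SE 0.249, adjusted p = 0.175).

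Pparg, at 97.1 normalized reads in TSLPR-negative Mi2 Tregs, lay within the TSLPR WT Mi2 range of 85.5 to 184 (log2 -0.37, SE 0.602, adjusted p = 0.887). The width of that error leaves room for a sizeable difference either way. Tbx21 had 138 in TSLPR-negative Mi2 Tregs, just above all 4 other libraries (log2 0.97, SE 0.484, adjusted p = 0.455). Stat3, at 6465 in the TSLPR-negative library, and Maf, at 2086 there, lay inside the Ctl range and were not called (adjusted p = 0.536 and 0.498). Gata3, at 1933, lay within the TSLPR WT Mi2 range (log2 -0.11, SE 0.252, adjusted p = 0.930). The count of calls depended on single libraries: it was 3 without Ctl replicate 1 and without Ctl replicate 2 (Ahr, Bcl6 and Rora), and 4 without TSLPR WT Mi2 replicate 2 (with Maf). DESeq2 on whole reads also called 3, with adjusted p = 0.0137 for Bcl6 and 0.0255 for Rora.

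The third comparison, TSLPR-negative Mi2 against Ctl Tregs, uses the same Ctl libraries as the first and the same TSLPR-negative library as the second. Pparg was the 1 factor that rose, 10.7-fold, and none fell, where 3.15% of all genes tested were called, 2.63% higher and 0.516% lower. Its 97.1 normalized reads in TSLPR-negative Mi2 Tregs stood against 5.92 and 11.2 in Ctl Tregs (log2 change 3.41, SE 0.602, adjusted p = 0.00672). Pparg passed the minimum mean of 10 only through the Mi2 libraries, and with no filter it was not called here. The log2 change of Pparg against Ctl was 3.41 in TSLPR-negative and 3.78 in TSLPR WT Mi2 Tregs. For Rora the same pair was 0.37 (SE 0.346) in TSLPR-negative and 1.67 in TSLPR WT Mi2 Tregs. For Batf it was 0.50 (SE 0.249) in TSLPR-negative and 1.28 in TSLPR WT Mi2 Tregs. For Ahr it was -0.48 (SE 0.333) in TSLPR-negative and 1.46 in TSLPR WT Mi2 Tregs, and for Bcl6 -0.94 (SE 0.442) in TSLPR-negative and -2.86 in TSLPR WT Mi2 Tregs. Of these 5 pairs, Ahr is the one whose difference passed its own test, which is the second comparison. The 3 remaining called in the first comparison besides Ahr and Pparg, namely Rora, Batf and Bcl6, were not called against Ctl in the TSLPR-negative library (adjusted p = 0.759, 0.422 and 0.379). Leaving out a Ctl library moved the difference of Rora to 0.90 without replicate 1 and to -0.16 without replicate 2.

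**Figure D2:**
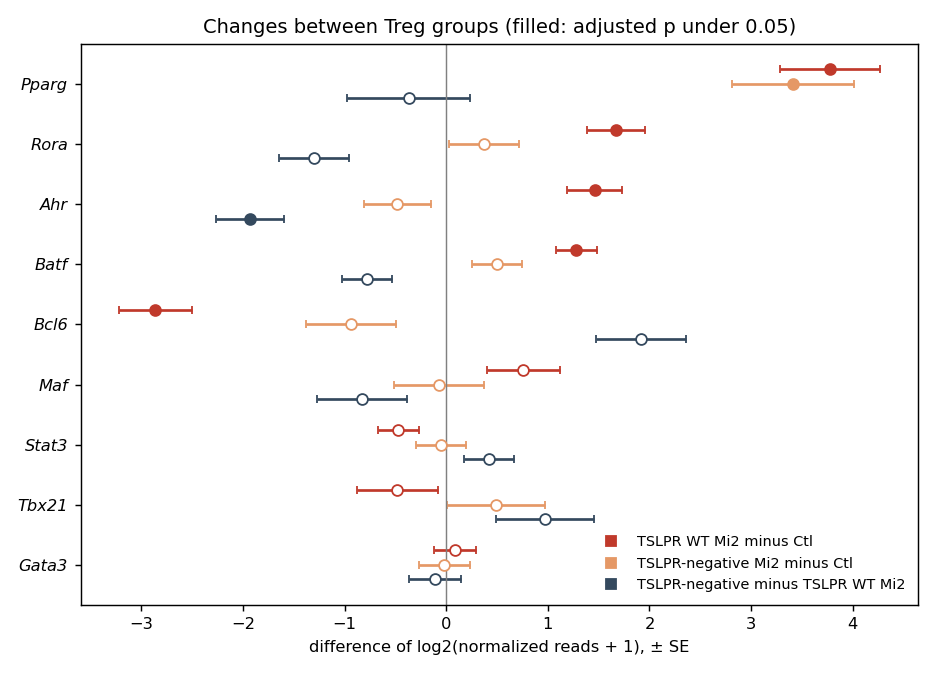
Log2 change of each factor with its standard error in the 3 Treg comparisons; filled points have a limma adjusted p under 0.05 and open points do not. Pparg lies near 3.78 and 3.41 against Ctl in TSLPR WT and TSLPR-negative Mi2 Tregs, while Ahr lies at 1.46 and -0.48.

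Genes known to work with these factors were taken as 10 lists, whose members were counted in the same fits. Of the 20 tested genes of the tissue and effector Treg list, 14 rose, 2 fell and 4 were not called in TSLPR WT Mi2 against Ctl Tregs, beside 14.7% higher and 13% lower of all genes tested. The median log2 change of the list was 1.06. Klrg1, a receptor of terminal effector Tregs, had 4314 and 3738 normalized reads in TSLPR WT Mi2 Tregs, 3023 in TSLPR-negative Mi2 Tregs and 767 and 574 in Ctl Tregs. Tigit, an inhibitory receptor, had 8581 and 5904 in TSLPR WT Mi2 Tregs, 3651 in TSLPR-negative Mi2 Tregs and 1344 and 1606 in Ctl Tregs. S100a4 and Lgals1, of motile and activated T cells, rose by log2 2.10 and 2.11. The 2 that fell were Nrp1, a marker of thymic Tregs, and Tnfrsf25, the receptor DR3. Against Ctl, the TSLPR-negative library had 2.63% of all genes tested called higher and 0.516% lower. In TSLPR-negative Mi2 against Ctl Tregs 6 of the 20 rose and none fell, among them Klrg1 (log2 change 2.19, adjusted p = 0.00157) and Tigit (1.31, adjusted p = 0.0164). In TSLPR-negative against TSLPR WT Mi2 Tregs none of the 20 was called, with a median log2 difference of -0.56, and 3 fell without TSLPR WT Mi2 replicate 2.

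The PPARγ target and lipid list has 12 genes, of which 6 could be tested. Of these 6, 4 rose and none fell in TSLPR WT Mi2 against Ctl Tregs (median log2 change 0.87). Of all genes tested, 14.7% were higher and 13% lower. Plin2, which coats lipid droplets, had 632 and 742 normalized reads in TSLPR WT Mi2 Tregs, 555 in TSLPR-negative Mi2 Tregs and 200 and 251 in Ctl Tregs. Cpt1a, which carries fatty acids into mitochondria, had 5807 and 3416 in TSLPR WT Mi2 Tregs, 5861 in TSLPR-negative Mi2 Tregs and 2055 and 1606 in Ctl Tregs. Both also rose in TSLPR-negative Mi2 against Ctl Tregs (log2 change 1.31, adjusted p = 0.0324 for Plin2 and 1.69, adjusted p = 0.00772 for Cpt1a). The other two that rose in TSLPR WT Mi2 Tregs, Acaa2 (log2 0.72) and Angptl4 (log2 1.02, adjusted p = 0.0464), held less firmly. Acaa2 was lost without Ctl replicate 1 or TSLPR WT Mi2 replicate 1, and Angptl4 without either Ctl library or TSLPR WT Mi2 replicate 2. The Plin2 call in TSLPR-negative Mi2 against Ctl Tregs was lost without Ctl replicate 1 (adjusted p = 0.0784).

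Of the 15 tested genes of the BCL6 and follicular list, 3 rose and 6 fell in TSLPR WT Mi2 against Ctl Tregs, or 2 and 3 without TSLPR WT Mi2 replicate 1. Cxcr5, the receptor that guides cells into the follicle, had 251 and 313 normalized reads in TSLPR WT Mi2 Tregs, 742 in TSLPR-negative Mi2 Tregs and 1235 and 1706 in Ctl Tregs. It is the 1 gene of the 10 lists that was called in TSLPR-negative against TSLPR WT Mi2 Tregs (log2 change 1.40, SE 0.302, adjusted p = 0.0431), and it was lost without TSLPR WT Mi2 replicate 1 (adjusted p = 0.0565). Prdm1 had 6492 and 4629 in TSLPR WT Mi2 Tregs, 2642 in TSLPR-negative Mi2 Tregs and 1390 and 1035 in Ctl Tregs. This antagonist of Bcl6 rose by log2 2.19 in TSLPR WT Mi2 (adjusted p = 1.5e-05) and by 1.14 in TSLPR-negative Mi2 Tregs (adjusted p = 0.0404) against Ctl, the second lost without Ctl replicate 2 (adjusted p = 0.105). Tcf7, the factor TCF-1 of resting and follicular cells, fell by 1.85 on the log2 scale in TSLPR WT Mi2 Tregs, and Icos, a costimulatory receptor, rose by 1.99. Btla, Ccr7, Lef1 and Sh2d1a also fell and Slamf6 rose. Among all genes tested, 14.7% were higher and 13% lower in TSLPR WT Mi2 than in Ctl Tregs.

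Of the 11 tested BATF and IRF4 partners, 3 rose and 3 fell in TSLPR WT Mi2 against Ctl Tregs. The shares over all genes tested were 14.7% higher and 13% lower. Irf4, the partner factor of BATF, had 10210 and 8036 normalized reads in TSLPR WT Mi2 Tregs, 5856 in TSLPR-negative Mi2 Tregs and 5001 and 3989 in Ctl Tregs (log2 change 1.02, adjusted p = 0.00292). Batf3 and Junb also rose, Junb losing its call without Ctl replicate 1 or TSLPR WT Mi2 replicate 2. Bach2, a repressor that keeps Tregs in a resting state, had 356 and 1213 in TSLPR WT Mi2 Tregs, 2399 in TSLPR-negative Mi2 Tregs and 3777 and 3040 in Ctl Tregs, and fell by 2.36 on the log2 scale (adjusted p = 4.5e-04). Jun and Fosb also fell. Bach2 was not called between TSLPR-negative and TSLPR WT Mi2 Tregs (log2 1.87, adjusted p = 0.0864), and was called there without either Ctl library (adjusted p = 0.0239 without replicate 1 and 0.0323 without replicate 2).

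Of the 7 tested AHR pathway genes, 2 rose and 1 fell in TSLPR WT Mi2 against Ctl Tregs. For this list and the MAF list below, the shares over all genes tested were 14.7% higher and 13% lower. Nqo1, a quinone reductase that AHR and NRF2 induce, had 179 and 171 normalized reads in TSLPR WT Mi2 Tregs, 99.6 in TSLPR-negative Mi2 Tregs and 29.6 and 16.8 in Ctl Tregs. It rose in TSLPR WT Mi2 (log2 change 2.91, adjusted p = 9.4e-05) and in TSLPR-negative Mi2 Tregs (2.11, adjusted p = 0.0275), the second lost without Ctl replicate 2 (adjusted p = 0.0875). Hsp90aa1, a chaperone of AHR, rose in TSLPR WT Mi2 Tregs (log2 0.76), a call lost without Ctl replicate 2 or without TSLPR WT Mi2 replicate 2. Gpr15, a homing receptor that AHR induces, fell in TSLPR WT Mi2 Tregs by 1.19 on the log2 scale, a call lost without TSLPR WT Mi2 replicate 2 (adjusted p = 0.0574). Tiparp, a feedback target of AHR, was not called (log2 0.61, adjusted p = 0.122), but was without Ctl replicate 1 or TSLPR WT Mi2 replicate 2 (adjusted p = 0.0237 and 0.0435). Of the 7 tested genes of the MAF list, Mafg alone rose (log2 0.94, adjusted p = 0.0331), and it lost its call without TSLPR WT Mi2 replicate 1 and without either Ctl library.

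Of the 9 tested genes of the GATA3 and type 2 list, 4 rose and 2 fell in TSLPR WT Mi2 against Ctl Tregs (median log2 change 0.82). Gata3 itself was not called. For this list and the type 1 list below, the shares over all genes tested were 14.7% higher and 13% lower. Those that rose were the chemokine receptors Ccr8 (log2 1.21) and Ccr4 (log2 1.05), the IL-33 receptor gene Il1rl1 and Il17rb, a receptor chain for IL-25. The 2 that fell were Il4ra, with 3055 and 4055 normalized reads in TSLPR WT Mi2 Tregs, 6123 in TSLPR-negative Mi2 Tregs and 7183 and 8402 in Ctl Tregs, and Stat6 (log2 -1.01). Both carry the IL-4 signal. Without TSLPR WT Mi2 replicate 1, 2 rather than 4 rose. Of the 12 tested genes of the T-bet and type 1 list, 3 rose, among them Cxcr6 and Il18rap, and 4 fell (Stat4, Nkg7, Ifng and Eomes), or 2 and 1 without Ctl replicate 2. Stat4, which carries the IL-12 signal, had 869 and 891 in TSLPR WT Mi2 Tregs, 1817 in TSLPR-negative Mi2 Tregs and 2353 and 2111 in Ctl Tregs.

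Of the 15 tested STAT3 pathway genes, 1 rose and 6 fell in TSLPR WT Mi2 against Ctl Tregs, or 1 and 2 without Ctl replicate 2. The receptor chains for IL-6 fell, Il6ra with 2637 and 2844 normalized reads in TSLPR WT Mi2 Tregs, 4348 in TSLPR-negative Mi2 Tregs and 5623 and 6051 in Ctl Tregs, and Il6st by 1.09 on the log2 scale. Il21r, Jak1, Myc and the feedback inhibitor Socs3 also fell. For this list and the paralogs below, the shares over all genes tested were 14.7% higher and 13% lower. Il23r, the IL-23 receptor chain, was the one that rose, with 285 and 91.6 in TSLPR WT Mi2 Tregs, 35.5 in TSLPR-negative Mi2 Tregs and 34.3 and 22.5 in Ctl Tregs (log2 change 2.50, adjusted p = 0.00191). Among 16 tested paralogs of the 9 factors, 3 rose (Arnt2, Batf3 and Mafg) and 7 fell, among them Stat2, Stat4, Stat5b and Stat6. Stat2, which carries interferon signals, had 1268 and 1055 in TSLPR WT Mi2 Tregs, 2115 in TSLPR-negative Mi2 Tregs and 3154 and 2432 in Ctl Tregs. Arnt2, a relative of the AHR partner ARNT, was 4.27-fold higher in TSLPR WT Mi2 and 2.90-fold higher in TSLPR-negative Mi2 than in Ctl Tregs (adjusted p = 6.2e-05 and 0.0189). One paralog rose without Ctl replicate 2 and likewise without TSLPR WT Mi2 replicate 1.

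Beyond Cxcr5, no gene of the 10 lists was called in TSLPR-negative against TSLPR WT Mi2 Tregs. Without TSLPR WT Mi2 replicate 2 calls were gained there: 3 of the follicular list rose and 2 fell, 3 of the effector list fell, 2 of the type 2 list fell, and 2 of the type 1 list rose and 1 fell. Among the genes named here, Bach2, Tcf7 and Nkg7 then rose and Icos, Prdm1, Tigit, Ccr4 and Il23r fell. Prdm1, Stat4 and Bach2 were called without either Ctl library. In TSLPR-negative Mi2 against Ctl Tregs no list gene fell, although Cxcr5 (log2 -0.97, adjusted p = 0.115) did without either TSLPR WT Mi2 library (adjusted p = 0.0469 and 0.0483). Without Ctl replicate 1, Il21r fell there (adjusted p = 0.0475). With all 5 libraries, none was called on the type 2, type 1, BATF, MAF and STAT3 lists.

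**Figure D3:**
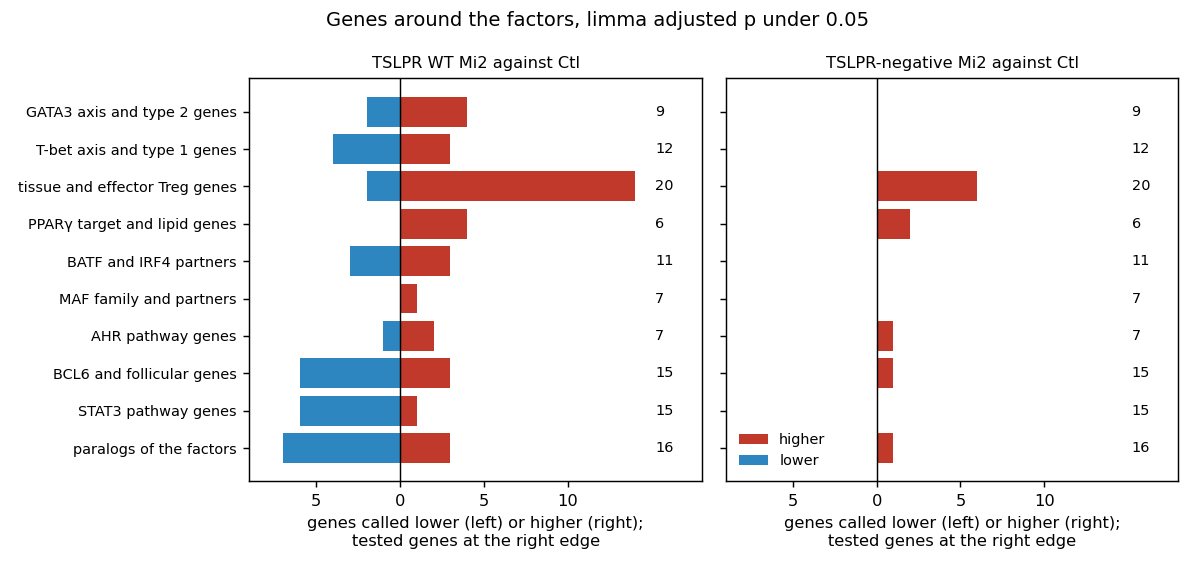
Number of genes of each list that were called higher or lower than in Ctl Tregs, in TSLPR WT Mi2 Tregs and in TSLPR-negative Mi2 Tregs; the number tested stands at the right edge. The tissue and effector list holds 14 genes higher and 2 lower of 20 in TSLPR WT Mi2 Tregs and 6 higher in TSLPR-negative Mi2 Tregs.

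Genes with the most similar pattern over the 5 Treg libraries were sought among 9766 genes with a mean of at least 100 normalized reads, by the root mean square (RMS) difference of centred log2 values. This is a description over 5 libraries in 3 groups, with up to 3 genes named for each factor. The genes were chosen for a shared pattern, so values that follow those of the factor are no separate result. Bcl6 was nearest to P2rx7 (RMS 0.105), Cecr6 (0.116) and Evl (0.119). P2rx7, an ATP-gated channel, had 271 and 681 normalized reads in TSLPR WT Mi2 Tregs, 1650 in TSLPR-negative Mi2 Tregs and 2738 and 3092 in Ctl Tregs. Ahr was nearest to the chemokine receptor Ccr3 (0.237), Gcnt1 (0.239) and Klf12 (0.282). Gcnt1, an enzyme that builds glycans for selectin ligands, had 2959 and 2256 in TSLPR WT Mi2 Tregs, 821 in TSLPR-negative Mi2 Tregs and 1082 and 828 in Ctl Tregs.

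Rora was nearest to Ryk (0.085), Zfp367 (0.097) and Tirap (0.139), and Batf to genes that include Pde4a (0.060) and Chsy1 (0.069). Pparg was nearest to Pls1 (0.460, correlation 0.969), Lmna (0.542, correlation 0.989) and Tnfrsf8 (0.572, correlation 0.985). The RMS grows with a gene's own spread, which was largest for Pparg (SD of log2 values 2.07 over the 5 libraries). The mean of Pparg itself was under the minimum of 100, so genes at its level were not among those compared. Lmna, which encodes lamin A, had 2003 and 2454 in TSLPR WT Mi2 Tregs, 1957 in TSLPR-negative Mi2 Tregs and 286 and 338 in Ctl Tregs. Maf was nearest to Il18r1 (0.190), Kcnk6 (0.211) and Zfp52 (0.265). Il18r1, a chain of the IL-18 receptor, had 4148 and 1462 in TSLPR WT Mi2 Tregs. It had 1873 in TSLPR-negative Mi2 Tregs and 1822 and 1586 in Ctl Tregs. Tbx21 was nearest to Tnfsf14 (0.169), Bmyc (0.173) and Cltb (0.186). Gata3 and Stat3, which varied least, had neighbours within 0.039 (Decr2, Cops7b and Ttl) and 0.030 (Dock8, Ttc17 and Ap3m2).

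In the epidermal table, which the authors normalized separately, 6 of the 9 factors passed the minimum mean of 10. Here Gata3 and Rora were lower and Stat3 was higher in Mi2 than in WT epidermis, and Maf, Ahr and Bcl6 were not called. Of all 14461 genes tested, 28.2% were called, 15.1% higher and 13.1% lower, beside 1 higher and 2 lower of these 6. Levels cannot be set across the 2 tables.

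Gata3, which in epidermis acts in hair follicles and barrier formation, had 2185 and 3186 normalized reads in Mi2 epidermis, against 6873 and 7604 in WT epidermis. It was 2.74-fold lower (log2 change -1.45, SE 0.255, adjusted p = 0.00860). Rora had 304 and 341 in Mi2 epidermis, against 1393 and 1290 in WT epidermis, and was 4.16-fold lower (log2 change -2.06, SE 0.187, adjusted p = 0.00112). The groups were far apart for both genes, and replicates lay close together for Rora but less so for Gata3 in Mi2 epidermis. Stat3, active in wounded and inflamed epidermis, had 2155 and 2204 in Mi2 epidermis, against 970 and 1191 in WT epidermis (log2 change 1.02, SE 0.199, adjusted p = 0.0120). Without WT replicate 1 the Stat3 call was lost (log2 0.87, adjusted p = 0.116).

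Ahr had 945 and 1543 normalized reads in Mi2 and 1092 and 1150 in WT epidermis (adjusted p = 0.779), Maf 2083 and 1899 in Mi2 and 2473 and 1916 in WT epidermis (adjusted p = 0.670). Bcl6 had 693 and 805 in Mi2 and 843 and 820 in WT epidermis (adjusted p = 0.560). Pparg had 1.33 and 5.45 in Mi2 and 4.96 and 0.726 in WT epidermis, Tbx21 1.33 and 4.09 in Mi2 epidermis with both WT libraries at 0, and Batf 0 in both Mi2 libraries and 0 and 0.726 in WT epidermis. Those 3 were too low to test. As checks of the labels, Chd4 had 734 and 1207 in Mi2 epidermis, 1.88-fold lower than in WT epidermis (adjusted p = 0.0456), and Tslp had 2780 and 3132 in Mi2 and 15.9 and 16.0 in WT epidermis. Mitochondrial genes took 29.7% and 15.5% of reads in the Mi2 libraries and 13.8% and 12.9% in the WT libraries. Without Mi2 replicate 1, where that share was highest, the log2 changes were -1.18 for Gata3, -1.97 for Rora and 1.04 for Stat3. The remaining Mi2 library, at 15.5%, still had a higher share than both WT libraries. The 4 Langerhans cell markers summed to 1250 and 1289 in Mi2 and 453 and 461 in WT epidermis, mostly Epcam. The ILC2 markers summed to 23.9 and 50.4 in Mi2 and 272 and 258 in WT epidermis. Both that could be tested were lower, Hpgds 7.70-fold and Il17rb 9.94-fold. The WT sum came from these genes alone. Il5, Il13 and Csf2 were at 0 in every epidermal library, and Calca was at 0 in WT epidermis only. Krt1, of differentiated keratinocytes, was 3.17-fold lower in Mi2 epidermis, and the erythroid genes Hbb-b1 and Hba-a1 were 5.61-fold and 6.15-fold lower. The part of the mitochondrial share and of these marker lists in the results for Gata3, Rora and Stat3 was not tested.

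**Figure D4:**
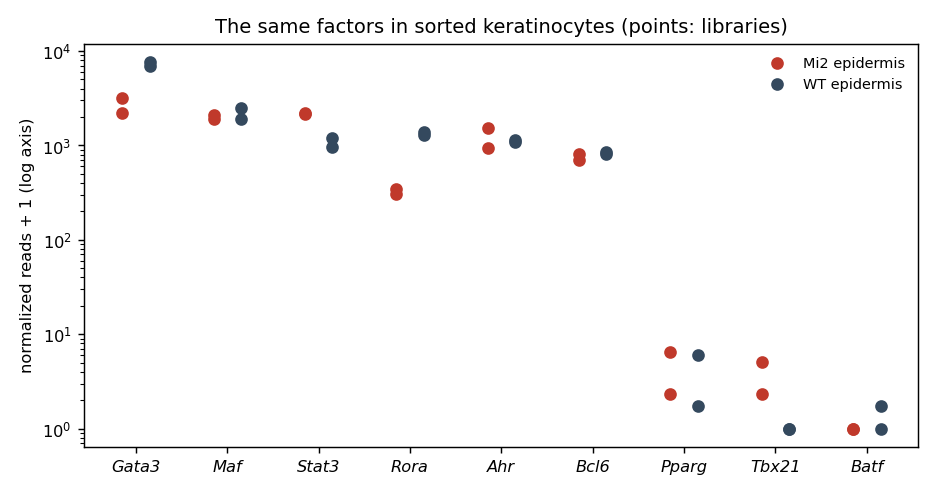
Normalized reads plus 1 of the 9 factors in the 4 epidermal libraries on a log axis, Mi2 left of WT. Points are libraries. Rora sits at 304 and 341 in Mi2 and 1393 and 1290 in WT epidermis, and Batf, Pparg and Tbx21 sit near the bottom in both groups.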

How the data were processed

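Sorted Tregs (5 libraries) and epidermal keratinocytes (4 libraries) were profiled by RNA-seq. The submitters' processing notes name bcl2fastq 1.8.3, STAR, DESeq2 and the builds mm9 and mm10. The deposited signal in both tables is a normalized read count, whole reads times 1 factor per library. Per the file headers, HOMER was used by the authors for the Treg table: exon reads of each RefSeq transcript on mm9, with no strand setting, from 7 libraries of which 5 are in the table. The 5 columns have a common total. For the epidermal table, the counter, strand setting and annotation version were not given in the sources used here. Transcripts of 1 gene share reads, so a gene's values come from the transcript with the highest mean. No transcript of another symbol with reads overlapped one of the 9 factors.

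Values were tested as log2(value + 1) with limma 3.58.1 (intensity trend, R 4.3.3) after genes with a mean under 10 were left out, with two-sided p-values adjusted by Benjamini-Hochberg over all genes and calls at an adjusted p under 0.05. The design had put raw counts first and limma otherwise, and limma was used because the tables hold normalized values. The 5 Treg libraries were fitted together, so that the TSLPR-negative library shares the spread of the others, and the 4 epidermal libraries apart. Dividing by the step for 1 read gave whole numbers within 0.05 reads for 100% of values, and edgeR 4.0.16 and DESeq2 1.42.0 were run on these whole reads as alternatives. In 1 column of each table that step is so close to 1 that low values alone do not show it.

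Of the pathway lists, the text names the 9 factors and up to 4 genes with the smallest p, with further called genes by name only. Some genes that this rule names are left out here. Factors, lists and tests were chosen with earlier results of these data known. Promoters come from RefSeq (GRCm38.p6) and were not placed on mm9. Other settings left out single libraries, changed the filter, pseudocount, scaling or test, or added the replicate number as a block. List counts without single libraries were added after the data had been seen.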

Additional observations from a re-analysis of the deposited data

Results flagged for a closer look

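Ahr drew attention because its change against Ctl differed between TSLPR-negative and TSLPR WT Mi2 Tregs, by -1.93 on the log2 scale (limma adjusted p = 0.0170). The TSLPR-negative library had 381 normalized reads, the TSLPR WT Mi2 libraries 1416 and 1496 and the Ctl libraries 715 and 393. The call was kept when any 1 of the 4 other Treg libraries was left out (log2 difference between -1.97 and -1.89). Without the intensity trend it was lost (adjusted p = 0.215).

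Cxcr5 was picked out in the same way, with a difference of 1.40 (adjusted p = 0.0431) between TSLPR-negative Mi2 Tregs, at 742 normalized reads, and TSLPR WT Mi2 Tregs, at 251 and 313. It was lost without TSLPR WT Mi2 replicate 1 (adjusted p = 0.0565). Both results rest on 1 TSLPR-negative library.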

How the results depend on the processing

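Of 480 alternative values for the log2 changes of the single factors, 447 kept their direction and side of the threshold, 10 lost the call, 13 gained one and 10 changed sign, all of the 10 on differences that were not called. In TSLPR WT Mi2 against Ctl Tregs the 5 calls became 0 with no filter on low values, where 0 of 16831 genes were called by limma and 5043 had an unadjusted p under 0.05, 6 of the 9 factors among them. The adjusted p was then 0.0691 for Pparg, 0.104 for Rora, 0.0625 for Batf, 0.0985 for Ahr and 0.0738 for Bcl6. In TSLPR-negative against TSLPR WT Mi2 Tregs the 1 call became 0 with no filter or without the trend, 2 with a mean of at least 50 (Ahr and Bcl6) and 3 with DESeq2. Against Ctl, the 1 call of the TSLPR-negative library became 0 with no filter or without the trend (Pparg adjusted p = 0.0832). The cause was not tested. With single libraries left out, the counts were 5 to 6, 1 to 4 and 1 to 1 in these comparisons and 2 to 3 in epidermis. edgeR called the same factors as limma in all 4 comparisons. The log2 values that changed sign when 1 library was left out ranged, in TSLPR WT Mi2 against Ctl Tregs, between -0.05 and 0.22 for Gata3 and between -0.02 and 1.54 for Maf. In TSLPR-negative against TSLPR WT Mi2 Tregs they ranged between -0.24 and 0.02 for Gata3 and between -0.92 and 0.18 for Pparg. In TSLPR-negative Mi2 against Ctl Tregs they ranged between -0.08 and 0.04 for Gata3, -0.16 and 0.90 for Rora, -0.11 and 0.01 for Stat3 and -0.32 and 0.19 for Maf. In epidermis they ranged between -0.31 and 0.05 for Maf and between -0.25 and 0.46 for Ahr. With the replicate number as a block, 7 factors were called in TSLPR WT Mi2 against Ctl Tregs, Maf (adjusted p = 0.00287) and Stat3 (0.0369) in addition, and 3 in epidermis. The labels do not say that numbers pair samples, and deviations of same-numbered libraries correlated at 0.092 in Tregs and 0.123 in epidermis across genes, which are not independent replicates. With 1 or 2 libraries a group, depth limits Pparg most, at 5 and 14 reads in the Ctl libraries.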
